A study of Homo sapiens with 14 samples.

Results

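Mitosis genes, the genes whose products divide the duplicated chromosomes between the daughter cells, were followed on 14 Affymetrix whole-transcript arrays of MiaPaCa2 cells, an established line from a human pancreatic cancer. The list held 58 gene symbols: mitotic cyclins, CDK1 and its phosphatases, spindle checkpoint genes, mitotic kinases, kinetochore and centromere genes, kinesins, spindle and cytokinesis genes, condensin and topoisomerase, chromosomal passenger genes, securin, separase, FOXM1 and MKI67. Of these, 57 had a transcript cluster of their own on the array, among 18377 genes in all. CENPA was on a cluster shared with SLC35F6 and has no value of its own. A gene was tested if its mean log2 level over the arrays was among the brightest 60%, and 54 of the 57 were tested. CENPE, KIF15 and KIF20B, with mean levels of 4.86, 5.10 and 5.62, fell below that level.

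The cells carried a short interfering RNA (siRNA, a duplex that lowers the RNA of its target gene) against NUPR1 (siNupr1), RELA (siRelA) or RELB (siRelB), or a scrambled duplex with no known target (siCtrl). NUPR1 is a small chromatin protein induced by stress; the proteins of RELA and RELB are partners in different forms of the transcription factor NF-kB. In the Nupr1 set, 8 arrays covered siNupr1 and siCtrl at 0, 3, 6 and 9 h of Earle's balanced salt solution (EBSS). In the NF-kB set, 6 arrays covered siRelA, siRelB and siCtrl after 9 h of EBSS or of mock medium, of unstated composition. EBSS lacks amino acids and growth factors, and glucose too according to the labels, so the cells in it were starved. For the 0 h arrays, the title says DMEM, the growth medium, and the source field EBSS. Here they count as unstarved, and every difference from 0 h carries that doubt. One label of the siNupr1 array at 9 h, its title, departs from the others, which name siNupr1, and the array was kept under that name. The purpose stated with the series was to look for survival genes that depend on NUPR1 during nutrient deprivation and on RELB rather than RELA.

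There was 1 array for each siRNA, medium and time, and no label states whether the arrays are of separate cultures. Differences are on the log2 scale, where 1 is 2-fold, and are given ± SE from 1 limma fit of set, siRNA and condition over all 14 arrays. Each difference is the mean over the array pairs that carry it. The spread behind an SE is how far the pairs of a gene depart from such means, pooled over both sets. limma also moderates it with the spread of other genes of like level. With 5 residual degrees of freedom, and 19.63 after moderation, an SE is not the spread of 1 comparison's own pairs. The p-values measure that pooled spread only, and the precision is limited by how few arrays there are. A gene was called higher or lower where its p, adjusted by Benjamini-Hochberg across all 11026 tested genes, was under 0.05. Deposited array medians lay between 5.67 and 5.84. Each siRNA's own target was lower, NUPR1 with a difference of -0.87, RELA with -2.49 and RELB with -1.32. Among epithelial markers KRT8 lay at 12.5 to 13.0, KRT18 at 12.7 to 13.3 and KRT19 at 9.54 to 10.7, while EPCAM and CDH1 were below the filter level on every array. The fibroblast gene COL1A2 lay at 9.22 to 11.0, COL1A1 at 6.53 to 7.27 and COL3A1 at 5.82 to 6.50, with DCN and LUM below 3.23. Among leukocyte markers CD68 lay at 7.69 to 8.88 and PTPRC was below 2.80. CD3E and LYZ were below the filter by their means, LYZ with up to 6.27. Of the acinar markers, CELA3A lay at 6.05 to 6.84. PRSS1, CPA1 and the 4 endothelial markers were below the filter by their means.

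In an animal cell, CDK1 bound to a cyclin starts mitosis, condensin and topoisomerase II compact and disentangle the chromosomes, and kinetochores tie each chromosome to spindle microtubules that kinesin motors arrange. The spindle checkpoint holds back the anaphase-promoting complex until every kinetochore is attached; CDC20 then activates that complex, securin is destroyed, separase cuts cohesin, and anillin and ECT2 help to build the ring that parts the cells. Most of these genes are transcribed from late S phase to mitosis, and the DREAM complex and the B-MYB and FOXM1 complexes are known to act on their promoters through a short element called CHR. Their RNA is therefore widely used as a measure of how many cells in a culture are dividing. In RNA from whole cultures, fewer cells in or near mitosis and less of this RNA per cell cannot be told apart.

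RefSeq promoter windows of GRCh38.p14, 250 bases before to 50 bases after a transcript start, were found for 51 of the 57 measured genes. The CHR letters TTTGAA or TTCGAA, on either strand, stood in a window of 38 of the 51 genes (74.5%), against 19.5% of all 27305 genes with a window and 14.3% of the 8849 tested genes with one. Centred within 50 bases of the start they were found in 60.8% of the mitosis genes and 6.41% of all genes. CCAAT, the letters bound by the factor NF-Y, stood on either strand in 76.5% of the mitosis genes and 39.7% of all genes, and both sets of letters shared a window in 56.9% and 7.85%. GGCGGGA, letters of E2F sites, stood in 27.5% of the mitosis genes, 18% of all genes and 30.9% of the tested genes. A match describes letters only and says nothing of binding. To show the arrangement, the 150 bases before the start of 6 genes described below are printed 5′ to 3′ on the gene's strand, with the letters searched for in capitals in either orientation (TTCAAA reads TTTGAA and ATTGG reads CCAAT on the other strand). They belong to KIF11 (chr10:92592980-92593129, plus strand), MKI67 (chr10:128126424-128126573, minus strand), DLGAP5 (chr14:55191586-55191735, minus strand), PLK1 (chr16:23678739-23678888, plus strand), KIF20A (chr5:138178962-138179111, plus strand) and CCNA2 (chr4:121823884-121824033, minus strand).
KIF11: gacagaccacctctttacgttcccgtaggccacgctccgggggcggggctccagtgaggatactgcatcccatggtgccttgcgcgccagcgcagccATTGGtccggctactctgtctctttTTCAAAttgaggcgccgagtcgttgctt
MKI67: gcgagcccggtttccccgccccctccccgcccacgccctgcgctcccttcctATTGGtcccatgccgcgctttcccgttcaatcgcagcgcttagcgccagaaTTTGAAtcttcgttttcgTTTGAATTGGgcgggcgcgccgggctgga
DLGAP5: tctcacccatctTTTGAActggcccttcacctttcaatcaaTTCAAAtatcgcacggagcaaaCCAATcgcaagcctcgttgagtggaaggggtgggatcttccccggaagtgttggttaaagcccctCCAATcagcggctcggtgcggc
PLK1: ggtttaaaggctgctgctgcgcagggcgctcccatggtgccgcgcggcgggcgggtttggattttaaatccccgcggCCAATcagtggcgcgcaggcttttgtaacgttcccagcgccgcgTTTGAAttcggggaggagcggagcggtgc
KIF20A: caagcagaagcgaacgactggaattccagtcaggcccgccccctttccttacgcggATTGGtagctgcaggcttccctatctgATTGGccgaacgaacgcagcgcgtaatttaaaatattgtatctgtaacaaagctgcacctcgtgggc
CCNA2: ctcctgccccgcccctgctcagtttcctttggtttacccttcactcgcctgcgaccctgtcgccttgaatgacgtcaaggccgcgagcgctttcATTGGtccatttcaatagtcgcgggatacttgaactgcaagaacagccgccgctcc
KIF11, MKI67 and PLK1 each hold TTTGAA between 28 and 47 bases before the start, with a CCAAT further upstream. In MKI67 the second TTTGAA overlaps an ATTGG. DLGAP5 holds its CHR letters farther up in this stretch, and a further match lies 4 bases after the start. In KIF20A and CCNA2 only CCAAT was found in the stretch shown; these exact CHR letters were not in their windows, which says nothing of other forms of the element.

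After EBSS the mitosis genes were lower as a group in siNupr1 and siCtrl cells, and over both siRNAs the fall was largest at 6 h. The Nupr1 set has no unstarved array at 3, 6 or 9 h, so EBSS and elapsed time cannot be told apart there. The median level of the 54 genes in siNupr1 cells was 8.61, 8.11, 8.15 and 8.04 after 0, 3, 6 and 9 h. In siCtrl cells the corresponding medians were 8.97, 8.51, 8.13 and 8.57. The siCtrl median was thus lowest at 6 h and part of the way back at 9 h, whereas the siNupr1 median stayed near its 3 h level.

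**Figure D1:**
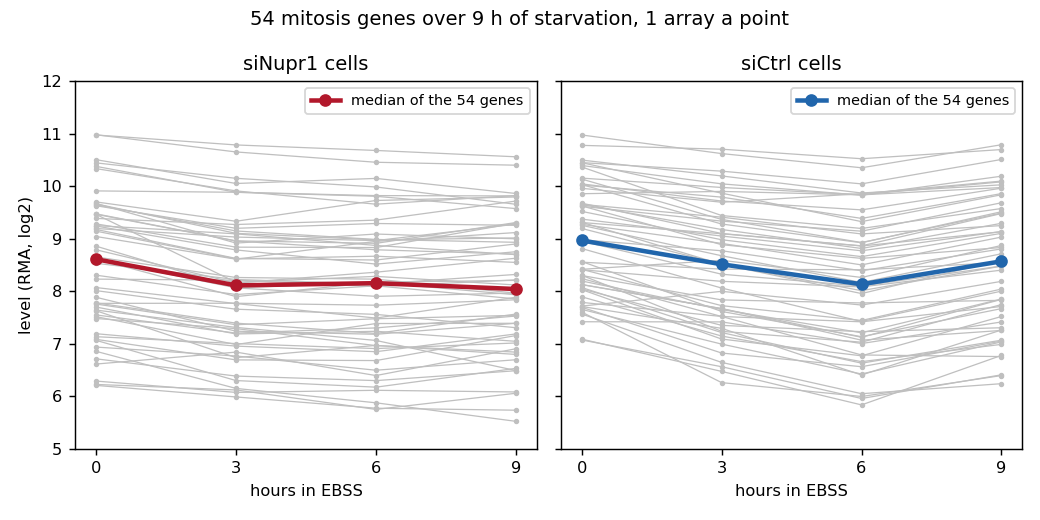
Level of each of the 54 tested mitosis genes (grey lines, RMA log2 values on the y axis, 1 array a point) against hours in EBSS, for siNupr1 cells on the left and siCtrl cells on the right; thick lines join the medians. In siCtrl cells the median falls to 8.13 at 6 h and lies at 8.57 at 9 h, while in siNupr1 cells it lies between 8.04 and 8.15 from 3 h on.

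At 3 h against 0 h, 28 of the 54 genes were lower and 0 higher, beside 9.07% lower and 3.27% higher among all tested genes. Their median difference was -0.42, where the median of all tested genes was -0.03. At 6 h, 47 were lower and 0 higher, beside 15.7% lower and 7.65% higher among all tested genes, with a median difference of -0.64 for the mitosis genes and -0.01 for all. At 9 h, 25 were lower and 0 higher, beside 15.1% and 9.19%, with medians of -0.36 and -0.04. All 54 estimates were negative at 6 h, 52 at 3 h and 50 at 9 h. The count at 6 h was 15 without the siCtrl array at 6 h and 30 without the siCtrl array at 0 h. At 3 h it was 6 without the siNupr1 array at 3 h, 11 without the siCtrl array at 3 h and 12 without the siCtrl array at 0 h, and at 9 h it was 16 without the siNupr1 array at 9 h; every gene counted was still lower.

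Among the genes that drive entry into mitosis, the cyclins and CDK1 fell and the CDC25 phosphatases were not called. CCNA2, the cyclin of S phase and early mitosis, had 8.86, 8.06, 7.90 and 7.96 at 0, 3, 6 and 9 h in siNupr1 cells, and 9.31, 8.51, 8.01 and 8.48 in siCtrl cells. Its level was below the 0 h level on all 6 starved arrays, with a difference of -1.13 ± 0.12 at 6 h (2 pairs, limma adjusted p = 4.42e-06). CDK1, the kinase that starts mitosis, had 7.06, 6.30, 6.17 and 6.53 at the 4 times in siNupr1 cells, and 7.69, 6.82, 6.56 and 7.05 in siCtrl cells. All starved arrays were again below 0 h of the same siRNA, with -0.82 ± 0.12 at 3 h, -1.01 ± 0.12 at 6 h and -0.59 ± 0.12 at 9 h. CCNB1, the main mitotic cyclin, moved less: 10.98, 10.65, 10.45 and 10.40 in siNupr1 cells, and 10.97, 10.62, 10.35 and 10.79 in siCtrl cells. Its difference was -0.57 ± 0.11 at 6 h (limma adjusted p = 0.0008, and 0.0572 without the siCtrl array at 6 h) and -0.34 ± 0.11 at 3 h (adjusted p = 0.0482, over 0.05 in 13 of the alternatives tried), and the siCtrl array at 9 h was close to its 0 h level. CCNB2, the other B-type cyclin, was lower at 6 h (-0.72) and at 9 h (-0.50). CDC25B and CDC25C, which remove the inhibitory phosphates from CDK1, had differences of -0.06 and -0.01 at 6 h and of -0.11 and 0.27 at 9 h, none called.

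All 8 spindle checkpoint genes were called lower at 3 h, with differences between -0.87 and -0.32. The count was 0 without the siNupr1 array at 3 h, 1 without the siCtrl array at 3 h and 2 without the siCtrl array at 0 h. MAD2L1, the checkpoint protein that inhibits CDC20, had 7.63, 6.74, 6.97 and 6.80 at 0, 3, 6 and 9 h in siNupr1 cells, and 8.07, 7.21, 6.63 and 7.07 in siCtrl cells. Every starved array lay below both 0 h arrays, and the difference was -0.87 ± 0.15 at 3 h, -1.05 ± 0.15 at 6 h and -0.92 ± 0.15 at 9 h (limma adjusted p = 0.000226 at 9 h); the 3 h call had an adjusted p of 0.0629 without the siNupr1 array at 3 h. BUB1B, a kinase-like checkpoint protein, had 7.70, 7.19, 7.24 and 7.05 in siNupr1 cells and 8.13, 7.67, 7.07 and 7.25 in siCtrl cells. At 9 h it was lower, with a difference of -0.76 ± 0.14, whereas the checkpoint kinase BUB1 was lower at 6 h (-0.45) and had -0.06 at 9 h. BUB3, which carries BUB1 and BUB1B to kinetochores, was lower at 3 h (-0.32) and had -0.04 at 6 h and 0.12 at 9 h. ZW10 and ZWILCH, subunits of the complex that brings the motor dynein to kinetochores, were lower, with differences of -0.53 and -0.56 at 3 h and -0.51 and -0.55 at 6 h.

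All 4 mitotic kinases were lower at 6 h and none was called at 3 h; the count at 6 h was 2 without the siCtrl array at 0 h and 1 without the siNupr1 array at 0 h. PLK4, which starts centriole duplication, had the largest difference of the 4, with 6.21, 5.99, 5.77 and 5.73 at 0, 3, 6 and 9 h in siNupr1 cells and 7.09, 6.47, 5.84 and 6.78 in siCtrl cells. In siNupr1 cells the fall was small, and the siCtrl array at 6 h stood lowest in its series; the difference at 6 h was -0.84 ± 0.18 (limma adjusted p = 0.00163). AURKA, a kinase of centrosome maturation and spindle assembly, had 9.66, 9.10, 8.98 and 9.01 in siNupr1 cells and 9.62, 9.33, 9.14 and 9.68 in siCtrl cells. The siCtrl array at 9 h was back at the 0 h level, and the differences were -0.58 ± 0.14 at 6 h and -0.29 ± 0.14 at 9 h (adjusted p = 0.152). AURKB, the kinase of the chromosomal passenger complex, had 9.25, 9.09, 8.87 and 8.70 in siNupr1 cells and 9.31, 9.09, 8.86 and 9.13 in siCtrl cells. Its difference was -0.41 ± 0.12 at 6 h and -0.36 ± 0.12 at 9 h, and it was the only one of the 4 called at 9 h (adjusted p = 0.03, and 0.393 without the siNupr1 array at 9 h). PLK1, a kinase with roles from mitotic entry to cytokinesis, had 10.50, 10.05, 10.15 and 9.86 in siNupr1 cells and 10.45, 10.28, 10.04 and 10.51 in siCtrl cells. Starved and unstarved siCtrl arrays overlapped, and the 6 h difference of -0.38 ± 0.13 (adjusted p = 0.0432) was called narrowly. Without the siCtrl array at 6 h the adjusted p was 0.571 for PLK1, 0.27 for AURKB, 0.155 for PLK4 and 0.111 for AURKA.

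Kinetochore and centromere genes were all lower at 6 h, 8 of the 8 tested, with differences between -1.29 and -0.55. The count was 2 without the siCtrl array at 6 h and 3 without the siCtrl array at 0 h. The largest difference of all 54 genes at 6 h was that of SPC25, a subunit of the NDC80 complex that grips microtubule ends. SPC25 had 6.85, 6.15, 5.88 and 5.52 at 0, 3, 6 and 9 h in siNupr1 cells, and 7.60, 6.26, 6.00 and 6.39 in siCtrl cells. Its 6 starved arrays lay below both 0 h arrays, with differences of -1.02 ± 0.17 at 3 h, -1.29 ± 0.17 at 6 h and -1.27 ± 0.17 at 9 h (limma adjusted p = 2e-05 at 9 h). SPC24, its direct partner, had 7.64, 7.31, 7.06 and 6.49 in siNupr1 cells and 7.79, 7.52, 6.79 and 6.76 in siCtrl cells. It had not been called at 3 h (-0.30) and was lower, with a difference of -1.09 ± 0.14 at 9 h, the second largest difference at that time. The other subunits, NUF2 and NDC80, were lower at 6 h (-0.91 and -0.63) and not called at 9 h (-0.39 and -0.15). Of the centromere genes, CENPK was lower at 6 and 9 h (-0.82 and -0.57), CENPI at 3 and 6 h (-0.61 and -0.55), and CENPF and ITGB3BP at 6 h (-0.61 and -0.64). CENPE, a kinetochore motor too dim to be tested, had 5.34, 5.17, 4.93 and 5.11 at 0, 3, 6 and 9 h in siNupr1 cells, and 6.51, 5.19, 4.97 and 6.11 in siCtrl cells.

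Among the kinesins, 6 of 7 tested were lower at 6 h, and 3 without the siCtrl array at 6 h. KIF20A, a motor of the central spindle needed for cytokinesis, had 9.46, 8.17, 8.28 and 8.12 at 0, 3, 6 and 9 h in siNupr1 cells, and 9.62, 8.89, 8.62 and 8.83 in siCtrl cells. The starved arrays were all below both 0 h arrays, with -1.02 ± 0.13 at 3 h, -1.09 ± 0.13 at 6 h and -1.07 ± 0.13 at 9 h (limma adjusted p = 9.3e-06 at 9 h). KIF11, the motor that pushes the spindle poles apart, had 7.88, 7.24, 7.18 and 7.39 in siNupr1 cells and 8.56, 7.61, 7.13 and 7.67 in siCtrl cells. It was lower, with a difference of -0.80 ± 0.15 at 3 h, -1.07 ± 0.15 at 6 h and -0.70 at 9 h, and at 3 h the adjusted p was 0.0617 without the siCtrl array at 0 h. KIF4A and KIF23, motors of the chromosome arms and the midzone, were lower at all 3 times, with differences of -0.54 and -0.71 at 6 h. KIF14 and KIF18A were called lower at 6 h (-0.66 and -0.76) and not at 3 or 9 h, and KIF2C, a microtubule depolymerase, was not called at any time (-0.07, -0.27 and 0.12).

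Spindle and cytokinesis genes numbered 7 lower of 8 at 6 h, and condensin and topoisomerase genes 6 of 6. Without the siCtrl array at 6 h the counts were 3 and 1, and without the siCtrl array at 0 h they were 4 and 3. DLGAP5, a protein of spindle microtubules near kinetochores, had 7.78, 7.39, 7.20 and 7.56 at 0, 3, 6 and 9 h in siNupr1 cells, and 8.81, 8.06, 7.42 and 8.0 in siCtrl cells. In each series the 6 h array was the lowest, and the difference was -0.98 ± 0.16 (limma adjusted p = 0.000212). ECT2, the exchange factor that activates RhoA at the cell equator, was the exception in its group, with -0.33 at 6 h. TOP2A, which disentangles sister DNA, had 9.28, 8.84, 8.83 and 9.30 in siNupr1 cells and 10.13, 9.37, 8.93 and 9.49 in siCtrl cells. At 9 h the siNupr1 array was level with its 0 h array, and the differences were -0.83 ± 0.15 at 6 h and -0.32 ± 0.15 at 9 h (adjusted p = 0.134). SMC2, one of the ATPase arms of condensin, had 6.22, 6.12, 5.75 and 6.06 in siNupr1 cells and 7.57, 6.64, 6.05 and 6.24 in siCtrl cells. Most of its 6 h difference of -1.0 ± 0.25 lay in siCtrl cells, and the adjusted p of 0.00733 was 0.144 without the siCtrl array at 6 h and 0.262 without the one at 0 h. The other arm SMC4 and the condensin I subunits NCAPG, NCAPH and NCAPD2 were lower at 6 h, with differences of -0.67, -0.64, -0.49 and -0.27.

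Of the chromosomal passenger partners of AURKB, BIRC5 (survivin) was lower at 6 h, with a difference of -0.66 ± 0.13 (limma adjusted p = 0.00109), while INCENP and CDCA8 had -0.37 and -0.29 and were not called. BIRC5 levels were 9.24, 8.79, 8.52 and 8.75 in siNupr1 cells and 8.98, 8.77, 8.39 and 8.80 in siCtrl cells, lowest at 6 h in each series. A second, dimmer BIRC5 cluster had 6.76, 5.74, 5.56 and 5.42 in siNupr1 cells, lowest at 9 h. In siCtrl cells that cluster had 6.06, 5.74, 5.62 and 6.21. PTTG1 (securin) had 9.64, 9.15, 8.98 and 8.93 in siNupr1 cells and 9.65, 9.41, 9.09 and 9.25 in siCtrl cells, and was lower at all 3 times, with a difference of -0.61 ± 0.11 at 6 h. ESPL1 (separase), which securin holds inactive, was lower at 6 h (-0.47) and not called at 3 or 9 h (-0.10 and -0.32). MKI67, which encodes the proliferation marker Ki-67, had 9.67, 8.92, 9.09 and 9.00 in siNupr1 cells and 10.36, 9.44, 9.19 and 9.57 in siCtrl cells. Each starved array was below both 0 h arrays, with differences of -0.84 ± 0.12 at 3 h, -0.88 ± 0.12 at 6 h and -0.73 ± 0.12 at 9 h. FOXM1, the transcription factor of many of these genes, had 10.44, 10.15, 9.98 and 9.65 in siNupr1 cells and 10.50, 10.19, 9.87 and 10.02 in siCtrl cells. Its difference was -0.30 ± 0.11 at 3 h (adjusted p = 0.0853), -0.54 ± 0.11 at 6 h (0.103 without the siCtrl array at 6 h) and -0.63 ± 0.11 at 9 h (adjusted p = 0.000334).

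**Figure D2:**
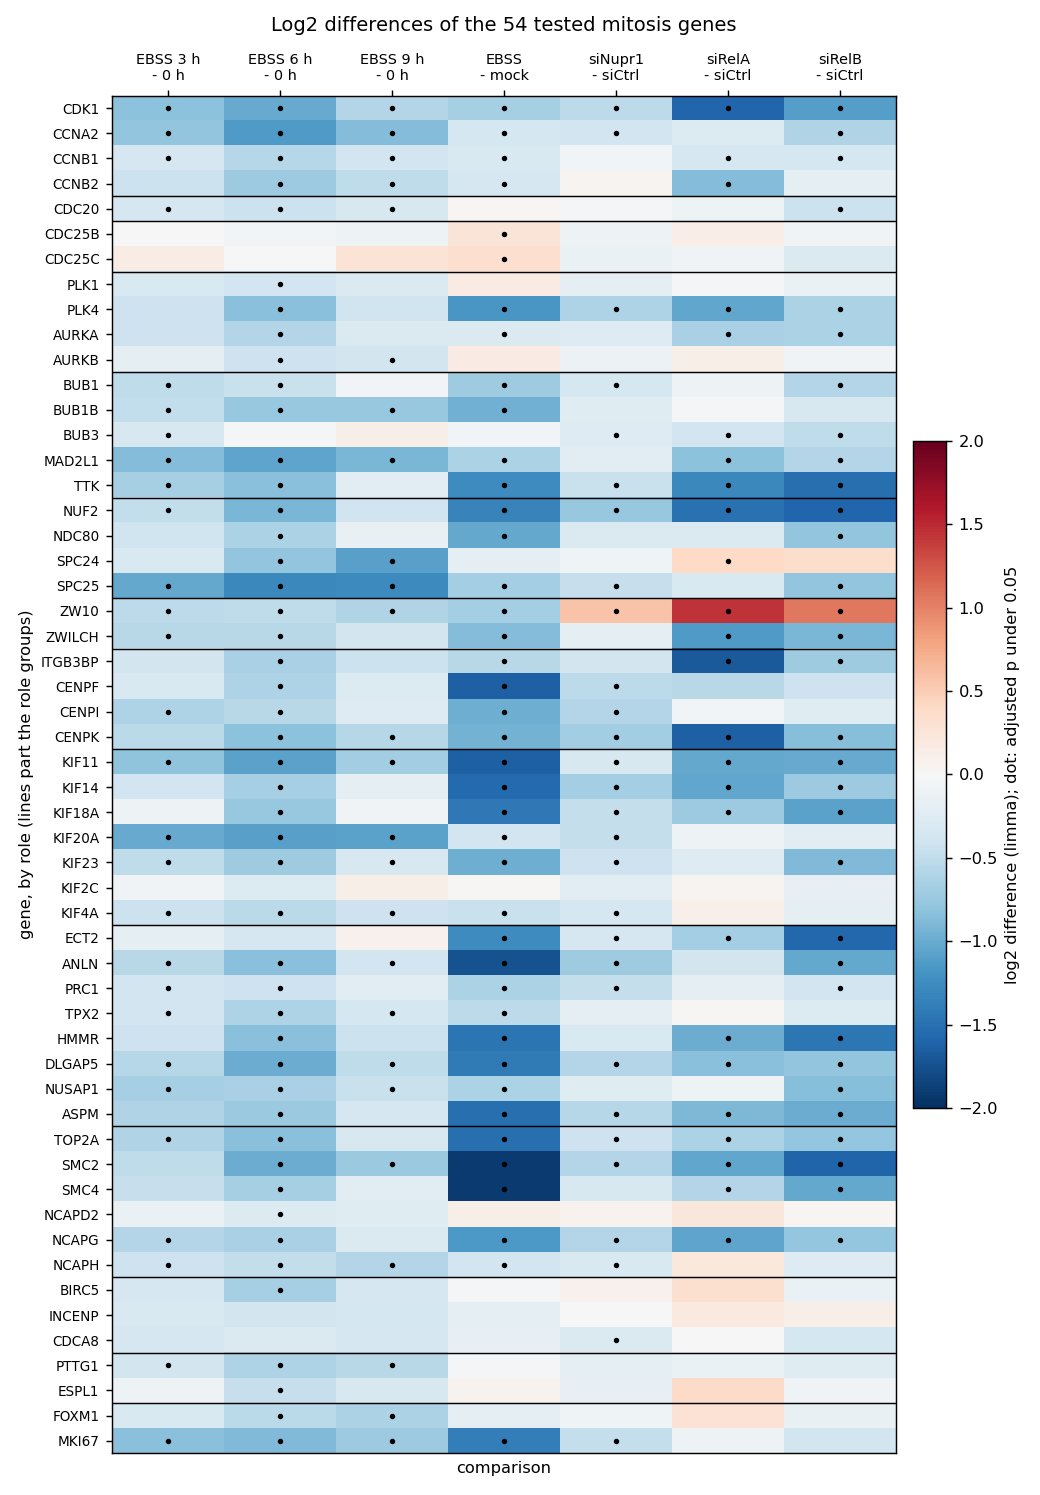
Log2 differences (colour, blue lower and red higher in the group named first) of the 54 tested mitosis genes, in rows by role, for 7 comparisons in columns; dots mark a limma adjusted p under 0.05. Dots mark 28, 47 and 25 lower genes at 3, 6 and 9 h, and ZW10 is lower in the 4 starvation columns and higher in the 3 siRNA columns.

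Between 6 h and 9 h most of the genes were higher on the later siCtrl array, and limma called none over both siRNAs. From the earlier to the later time, 53 of the 54 genes were higher in siCtrl cells, with a median of 0.44. In siNupr1 cells 30 of 54 were higher, with a median of 0.05. Of all tested genes, 45.9% were lower at the later time in siCtrl cells and 56.1% in siNupr1 cells. The lowest of the 4 times was 6 h for 51 genes in siCtrl cells, whereas in siNupr1 cells it was 3 h for 12 genes, 6 h for 22 and 9 h for 20. The lowest time was not counted over all tested genes. In the fit over both siRNAs, limma called 0 of the 54 genes at 9 h against 6 h (23 at an unadjusted p under 0.05), beside 0.399% higher and 0.0453% lower among all tested genes. At 6 h against 3 h the count was also 0 (15 at an unadjusted p under 0.05), beside 0.0998% and 0.19%, and it was 7 when arrays were weighted by their fit. CDK1 and TOP2A had differences of 0.42 ± 0.12 and 0.51 ± 0.15 at 9 h against 6 h, with adjusted p = 0.147 for each by limma.

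In the NF-kB set, whose baseline is mock medium at 9 h, EBSS lowered 39 of the 54 genes and raised 2, beside 29.3% lower and 22.6% higher among all tested genes. The median difference was -0.65 for the mitosis genes and 0.05 for all tested genes. It was alike within each siRNA, -0.70 with siRelA, -0.70 with siRelB and -0.59 with siCtrl. Of the 39 lower genes, 18 were at least 2-fold lower. Neither this nor any later 2-fold count was made over all tested genes. Among marker genes, CD68, KRT19, KRT18 and KRT8 were higher in EBSS by 0.56, 0.49, 0.33 and 0.14, and COL1A2 was lower (-0.91, and -0.67 at 6 h in the Nupr1 set). The other fibroblast genes tested, COL1A1 and COL3A1, were not called, with 0.22 and -0.10 in EBSS against mock and 0.22 and -0.26 at 6 h. The part of these markers in the results was not tested.

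The 2 largest falls were those of the condensin arms SMC2 and SMC4, which compact chromosomes. SMC4 had 7.29, 6.94 and 7.67 in EBSS with siRelA, siRelB and siCtrl, against 9.12, 8.59 and 9.91 in mock with the same siRNAs. The EBSS and mock arrays did not overlap, and the difference was -1.91 ± 0.13 (3 pairs, limma adjusted p = 1.96e-09). SMC2 had 4.81, 3.63 and 5.22 in EBSS, against 5.90, 5.95 and 7.57 in mock, again without overlap and with a difference of -1.92 ± 0.21. TOP2A had 8.22, 8.20 and 9.07 in EBSS against 9.95, 9.71 and 10.38 in mock, lower, with a difference of -1.52 ± 0.12. NCAPG followed with -1.14 and NCAPH with -0.38, while NCAPD2, the remaining condensin I subunit, had 0.11 and was not called.

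All 8 spindle and cytokinesis genes were lower in EBSS, with differences between -1.74 and -0.53. ANLN (anillin), the scaffold of the contractile ring, had 8.47, 7.93 and 8.99 in EBSS with siRelA, siRelB and siCtrl, against 10.40, 9.63 and 10.60 in mock. Every EBSS array lay below every mock array, with a difference of -1.74 ± 0.11 (limma adjusted p = 9.72e-10). Kinesins were lower in 6 of 7: KIF11 had 6.13, 6.04 and 7.22 in EBSS against 7.74, 7.84 and 8.69 in mock, a difference of -1.63 ± 0.12. KIF14, a motor of cytokinesis, had 5.10, 5.35 and 5.71 in EBSS against 6.34, 6.70 and 7.80 in mock, lower, with a difference of -1.56 ± 0.14. For both motors the EBSS arrays stayed below the mock arrays. Kinetochore and centromere genes were lower in 7 of 8, led by CENPF, a protein of the outer kinetochore, with 6.44, 6.53 and 6.41 in EBSS against 7.65, 7.85 and 8.79 in mock (-1.63 ± 0.17). SPC25 and SPC24, the genes that led at 9 h in the Nupr1 set, had -0.69 and -0.20 here, the second not called.

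CDK1 had 6.28, 6.72 and 7.87 in EBSS with siRelA, siRelB and siCtrl, against 6.93, 7.44 and 8.50 in mock. Within each siRNA the EBSS array was the lower, with a difference of -0.67 ± 0.10 (limma adjusted p = 1.35e-05), although EBSS and mock arrays overlapped across siRNAs. CCNB1 had 10.95, 11.05 and 11.46 in EBSS against 11.47, 11.31 and 11.62 in mock, a difference of -0.31 ± 0.09 (adjusted p = 0.00754) that was not called without either siRelA array (adjusted p = 0.114 and 0.116). AURKA had 9.30, 9.20 and 10.09 in EBSS against 9.61, 9.72 and 10.11 in mock, and its -0.29 ± 0.12 (adjusted p = 0.0454) missed the threshold in 12 of the alternatives tried, with an adjusted p of 0.335 without the siRelB mock array. PLK1 had 10.66, 10.49 and 10.71 in EBSS against 10.46, 10.45 and 10.48 in mock, a difference of 0.16 ± 0.11 that was not called. AURKB was also not called (0.17 ± 0.10), with 9.77, 9.55 and 9.63 in EBSS against 9.56, 9.41 and 9.47 in mock. FOXM1 had 10.11, 9.64 and 9.87 in EBSS against 10.33, 9.90 and 9.97 in mock, where the difference of -0.19 ± 0.09 missed the threshold (adjusted p = 0.0835). MKI67, with 8.74, 8.52 and 8.86 in EBSS against 10.15, 9.86 and 10.24 in mock, was lower, with a difference of -1.38 ± 0.10. PLK4 was lower, with a difference of -1.17. The 2 genes called higher were the phosphatases CDC25C (0.34) and CDC25B (0.25).

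Falls in EBSS against mock tended to be larger in longer genes, with exceptions. TOP2A and MKI67, with spans of 29.4 and 29.8 kb, had differences of -1.52 and -1.38. KIF4A, the longest at 130.8 kb, had -0.67, -0.32 and -0.35 in the pairs with siRelA, siRelB and siCtrl. The median genomic span was 33.8 kb for the mitosis genes and 24.7 kb for all tested genes with a span. Across the 54 genes, Spearman's rho between span and the difference was -0.58, and across 11017 tested genes it was -0.42; genes share arrays and are not independent replicates. The same rho across the 54 genes was -0.11, -0.05 and 0.19 at 3, 6 and 9 h in the Nupr1 set. After removal of the span trend, EBSS against mock called 39 of the genes lower and 3 higher. Brighter genes had smaller falls, with a rho between mean level and the difference of 0.48 at 6 h and 0.48 in EBSS against mock.

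**Figure D3:**
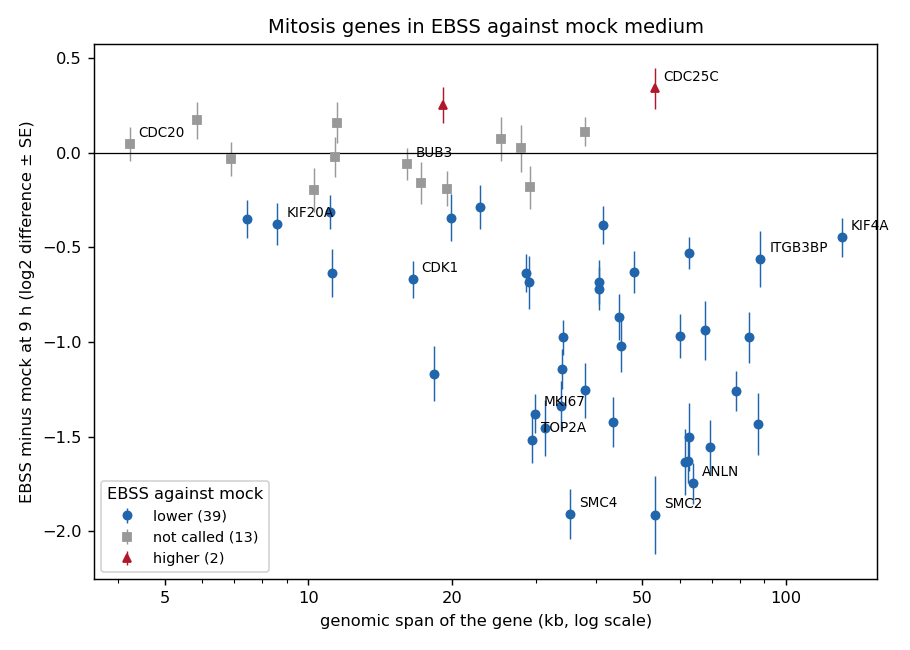
Log2 difference in EBSS minus mock at 9 h (y axis, points with SE bars from the limma fit) against genomic span in kb (log x axis) for the 54 tested mitosis genes; blue points are the 39 called lower, red triangles the 2 called higher and grey squares the 13 not called. Genes near -1.9, SMC2 and SMC4, are of middle to long span, while the shortest genes, such as CDC20, lie near 0.

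The sets share no array, so the differences at 6 h and in EBSS against mock can be set side by side. Of the 47 genes lower at 6 h, 38 were also lower in EBSS against mock (80.9%), which were 97.4% of the 39 genes lower there; Pearson's r across the 54 genes was 0.56 and Spearman's rho 0.61. At the matched time of 9 h, 20 genes were lower in both, with r = 0.08. These were 80.0% of the 25 in the Nupr1 set and 51.3% of the 39 in the NF-kB set. With 39 of the 54 genes lower in EBSS against mock, much of either overlap follows from the counts alone. Overlap and r across all tested genes were not computed. The difference between the sets was tested as starvation at 9 h in the Nupr1 set minus that in the NF-kB set, and limma called it for 28 of the 54 genes, 21 higher and 7 lower, beside 16.4% higher and 8.11% lower among all tested genes. Their baselines differ, 0 h in the Nupr1 set and mock at 9 h in the NF-kB set, so set, baseline and medium cannot be told apart. SMC4 had the largest, 1.69 ± 0.21 (adjusted p = 1.04e-05), with a difference of -1.91 in EBSS against mock and of -0.22 at 9 h against 0 h. SPC24 had the opposite difference, -0.89. The count of 28 was 17 without the siNupr1 array at 0 h.

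With siNupr1, 28 of the 54 genes were lower than with siCtrl and 1 was higher, beside 8.58% lower and 9.86% higher among all tested genes. The median difference was -0.31, against 0.01 for all tested genes, and 0 genes were as much as 2-fold lower. By time, the median of the pairs was -0.45, -0.39, -0.06 and -0.39 after 0, 3, 6 and 9 h, with 40, 48, 34 and 53 of the 54 genes lower. Of all tested genes, 42%, 51%, 47.6% and 53.6% were lower at these times. The median was thus below 0 before starvation and nearest to 0 at 6 h.

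**Figure D4:**
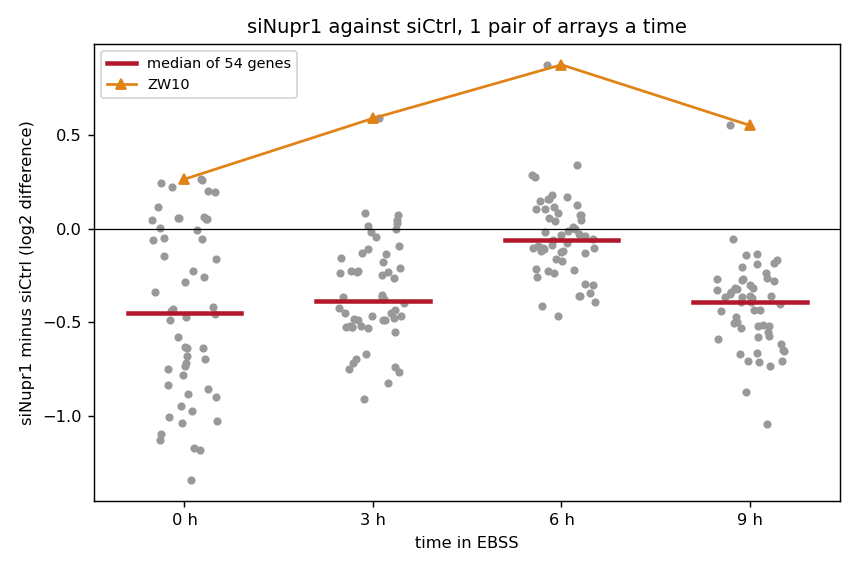
Log2 difference of siNupr1 minus siCtrl (y axis) for each of the 54 mitosis genes (grey points, 1 pair of arrays a time) at 0, 3, 6 and 9 h in EBSS (x axis), with the median as a red bar and ZW10 as linked triangles. Medians lie at -0.45, -0.39, -0.06 and -0.39, and ZW10 lies above 0 at each time.

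Kinesins were lower in 6 of 7 with siNupr1, kinetochore and centromere genes in 5 of 8, spindle and cytokinesis genes in 5 of 8 and condensin and topoisomerase genes in 4 of 6. The kinesin count was 3 without either array at 3 h, the kinetochore count 3 without any 1 of the arrays at 0 or 9 h, the spindle count 3 without either array at 0 h and the condensin count 1 without any 1 of the arrays at 0 or 3 h. NUF2, a subunit of the NDC80 complex, had 8.07, 7.76, 7.49 and 7.88 at 0, 3, 6 and 9 h with siNupr1, against 9.19, 8.51, 7.95 and 8.59 with siCtrl. At each time the siNupr1 array was the lower, with a difference of -0.76 ± 0.11 over the 4 pairs (limma adjusted p = 0.000164). ANLN had 9.47, 8.96, 8.91 and 9.31 with siNupr1, against 10.45, 9.87, 9.32 and 9.84 with siCtrl, lower, with a difference of -0.71 ± 0.09. CENPK, a protein of the inner kinetochore, had 6.71, 6.38, 6.30 and 6.49 with siNupr1, against 7.89, 7.15, 6.66 and 6.99 with siCtrl, lower, with a difference of -0.70 ± 0.14. KIF14 had 7.19, 6.95, 6.85 and 7.19 with siNupr1, against 8.19, 7.65, 7.21 and 7.85 with siCtrl, a difference of -0.68 ± 0.12 with no overlap between the siRNAs. PLK4 and DLGAP5, whose levels are given above, were lower, with differences of -0.62 ± 0.12 and -0.59 ± 0.11, each at all 4 times.

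Also lower with siNupr1 were CDK1, with a difference of -0.52 ± 0.09, MKI67 -0.48 ± 0.09 and TOP2A -0.42 ± 0.10 (limma adjusted p = 0.00939, and 0.0891 without the siCtrl array at 0 h). AURKA had -0.26 ± 0.10, PLK1 -0.18 ± 0.09, AURKB -0.12 ± 0.08, FOXM1 -0.09 ± 0.08 and CCNB1 -0.06 ± 0.08, none called. ZW10, the dynein-linked checkpoint gene, was the only one called higher, with 8.30, 7.94, 8.10 and 7.85 with siNupr1 against 8.04, 7.35, 7.23 and 7.30 with siCtrl. It was higher at each time, by 0.57 over the 4 pairs. The count of 28 lower genes was 16 without either array at 3 h and 21 without both 9 h arrays, one of which has the doubtful title. The marker genes CD68 and KRT19 were higher with siNupr1 by 0.55 and 0.61, and their part in the mitosis gene results was not tested.

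Whether the siNupr1 difference changed with time was tested in 2 ways. As a slope per hour, limma called 0 of the 54 genes (16 at an unadjusted p under 0.05), with 0% called in each direction among all tested genes, and 5 genes when the Nupr1 set was fitted alone. As the difference at 6 h minus that at the other times, a comparison chosen after the pattern at 6 h had been seen, limma called 0 genes (10 at an unadjusted p under 0.05), again with 0% of all genes. All 54 estimates of that second difference were positive, with a median of 0.38, against 0.02 for all tested genes. It rests on the pair of arrays at 6 h: between 0 h and 6 h, 23 of the 54 genes fell at least 2-fold in siCtrl cells and 1 in siNupr1 cells, and the medians at 6 h were 8.15 with siNupr1 and 8.13 with siCtrl. These 2-fold falls were not counted over all tested genes. Over all tested genes the 6 h minus 0 h difference also spread more widely in siCtrl cells, with a standard deviation of 0.42 against 0.32 in siNupr1 cells.

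With siRelA, 23 of the 54 genes were lower than with siCtrl and 2 were higher, beside 11.4% lower and 10.1% higher among all tested genes. The median difference was -0.28 for the mitosis genes and 0.01 for all. Every siRNA difference from siCtrl is one between duplexes, so loss of the target and other differences of a duplex cannot be told apart. The median of the pair was -0.35 in EBSS and -0.14 in mock. Of the 23, 11 were at least 2-fold lower. ITGB3BP, the inner kinetochore protein CENP-R, had 5.28 and 5.55 in EBSS and mock with siRelA, against 6.66 and 7.55 with siCtrl. The siRNAs did not overlap, and the difference was -1.69 ± 0.18 (2 pairs, limma adjusted p = 2.74e-06). CENPK had 5.27 and 5.67 with siRelA, against 6.42 and 7.78 with siCtrl, lower, with a difference of -1.63 ± 0.19. CDK1 had 6.28 and 6.93 with siRelA, against 7.87 and 8.50 with siCtrl, lower, with a difference of -1.58 ± 0.12 with no overlap. NUF2 had 6.81 and 7.90 with siRelA, against 8.27 and 9.43 with siCtrl (-1.50 ± 0.16), and the checkpoint kinase TTK had 5.56 and 6.72, against 6.98 and 7.89 (-1.29 ± 0.18).

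ZW10 went the other way, with 7.82 and 8.56 in EBSS and mock with siRelA, against 6.31 and 7.18 with siCtrl. It was higher by 1.44 ± 0.14 (limma adjusted p = 1.12e-06) with no overlap, and SPC24 was the other gene called higher (0.40). AURKA and TOP2A were lower, with differences of -0.65 ± 0.14 and -0.64 ± 0.15, with adjusted p of 0.115 and 0.119 without the siCtrl array in EBSS, and CCNB1 with -0.33 ± 0.11 (adjusted p = 0.0378, and 0.474 without the siRelA array in EBSS). MKI67, PLK1, AURKB and FOXM1 had -0.11 ± 0.12, -0.03 ± 0.13, 0.12 ± 0.12 and 0.29 ± 0.11, none called, and the genes BIRC5, INCENP and CDCA8 had 0.32, 0.20 and -0.01. The fibroblast gene COL1A2 was also higher with siRelA, by 0.44, while COL1A1 and COL3A1 were not called (0.01 and 0.15); its part in these results was not tested.

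**Figure D5:**
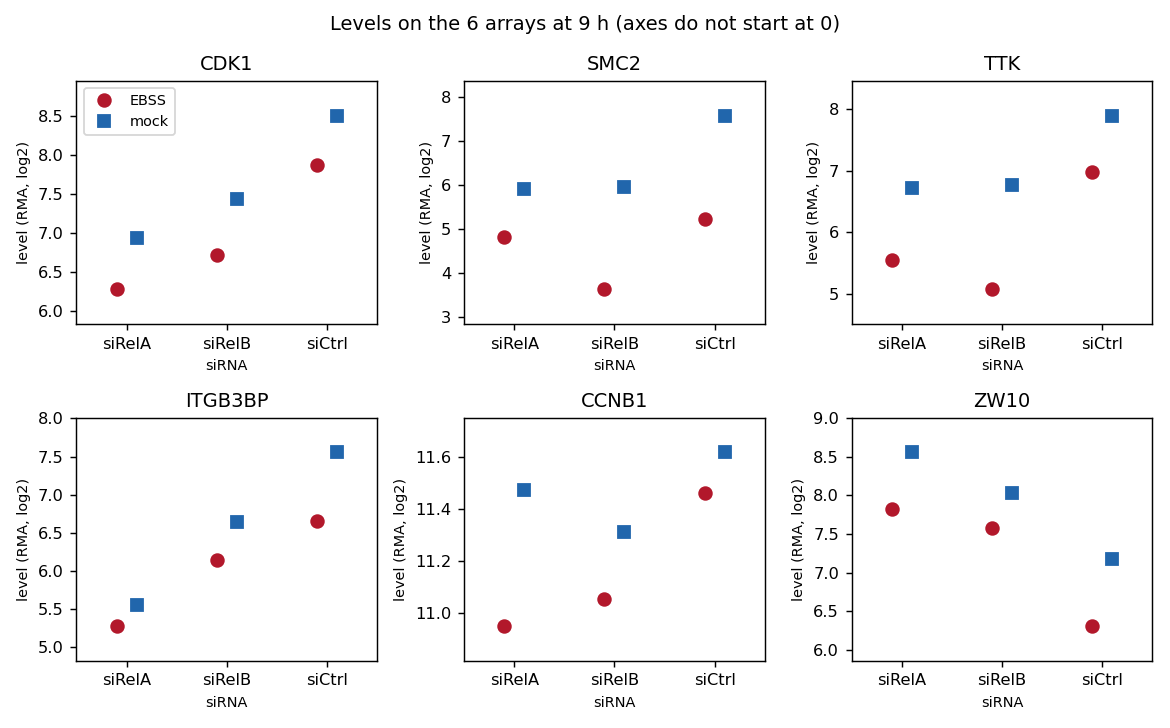
Levels (RMA log2, y axes that do not start at 0) of CDK1, SMC2, TTK, ITGB3BP, CCNB1 and ZW10 on the 6 arrays at 9 h, by siRNA on the x axis, with EBSS as red circles and mock as blue squares; each point is 1 array. Each gene is lower in EBSS than in mock for the same siRNA, and ZW10 alone is higher with siRelA and siRelB than with siCtrl.

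With siRelB, 31 of the 54 genes were lower than with siCtrl and 1 was higher, beside 8.55% lower and 7.58% higher among all tested genes. Of the 31, 10 were at least 2-fold lower. The median was -0.54 for the mitosis genes and 0.00 for all, and within the media it was -0.48 in EBSS and -0.47 in mock. SMC2 had 3.63 and 5.95 in EBSS and mock with siRelB, against 5.22 and 7.57 with siCtrl, lower, with a difference of -1.60 ± 0.25 (2 pairs, limma adjusted p = 0.000213). Each siRelB array was below the siCtrl array of the same medium, although SMC2 in mock with siRelB was above SMC2 in EBSS with siCtrl. NUF2 had 6.39 and 8.14 with siRelB, against 8.27 and 9.43 with siCtrl, lower, with a difference of -1.59 ± 0.16. ECT2 had 7.46 and 8.73 with siRelB, against 9.05 and 10.29 with siCtrl, lower, with a difference of -1.58 ± 0.13 with no overlap. TTK had 5.08 and 6.77 with siRelB, against 6.98 and 7.89 with siCtrl (-1.51 ± 0.18), also without overlap. HMMR, a spindle protein, had 4.73 and 5.98 with siRelB, against 5.82 and 7.79 with siCtrl (-1.45 ± 0.18).

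Spindle and cytokinesis genes were lower in 7 of 8 with siRelB (4 without the siRelB mock array) and checkpoint genes in 6 of 8 (2 without the siRelB or the siCtrl array in EBSS). CDK1 was lower, with a difference of -1.11 ± 0.12, TOP2A -0.77 ± 0.15, AURKA -0.64 ± 0.14 and CCNB1 -0.36 ± 0.11 (limma adjusted p = 0.0312, and 0.381 without the siCtrl array in EBSS, when TOP2A and AURKA had 0.0593 and 0.151). MKI67 had -0.37 ± 0.12, just short of the threshold (adjusted p = 0.0503), and FOXM1, PLK1 and AURKB had -0.15 ± 0.11, -0.13 ± 0.13 and -0.07 ± 0.12. The gene called higher was again ZW10, with 7.58 and 8.03 with siRelB, against 6.31 and 7.18 with siCtrl, a difference of 1.06. Without the siRelB or the siCtrl array in EBSS the lower genes numbered 19 rather than 31. ZW10 was therefore lower under starvation, with differences of -0.53, -0.51 and -0.59 at 3, 6 and 9 h and -0.69 in EBSS against mock, and higher with each of the 3 siRNAs.

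The siRelA and siRelB differences share the siCtrl arrays, so their own difference was tested. siRelB against siRelA called 9 of the 54 genes lower and 4 higher, beside 4.61% lower and 5.46% higher among all tested genes, with medians of -0.21 and -0.01. ITGB3BP had 6.14 and 6.65 in EBSS and mock with siRelB, against 5.28 and 5.55 with siRelA, higher by 0.98 ± 0.18 (limma adjusted p = 0.00148). CENPK, CCNB2 and CDK1 were the other genes higher with siRelB, by 0.77 ± 0.19, 0.67 ± 0.15 and 0.47 ± 0.12. ECT2 had 7.46 and 8.73 with siRelB, against 8.35 and 9.62 with siRelA, lower, with a difference of -0.89 ± 0.13 (adjusted p = 0.000185). The spindle protein NUSAP1, with 7.63 and 8.50 with siRelB, against 8.52 and 9.09 with siRelA, was lower, with a difference of -0.74 ± 0.14. ANLN, with 7.93 and 9.63 against 8.47 and 10.40, was lower, with a difference of -0.66 ± 0.13, and FOXM1 with -0.45 ± 0.11. The count of 13 was 8 without the siRelA array in EBSS and 4 without any other of the siRelA and siRelB arrays. ITGB3BP had an adjusted p of 0.0883 without the siRelA mock array, and NUSAP1 had 0.0857 without the siRelB array in EBSS. ANLN, CENPK, CCNB2, CDK1 and FOXM1 were each not called without 2 or more of the arrays (adjusted p up to 0.114, 0.461, 0.268, 0.187 and 0.163).

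Neither siRNA difference was shown to depend on the medium. For siRelA, EBSS minus mock called 0 of the 54 genes by limma (10 at an unadjusted p under 0.05), beside 0.0363% higher and 0% lower among all tested genes. For siRelB it called 0 (7 at an unadjusted p under 0.05), beside 0% in each direction. SMC2 had the most positive siRelA value and NDC80 the most negative, 1.26 and -0.77.

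The siNupr1 arrays share none with the siRelA and siRelB comparisons. Of the 28 genes lower with siNupr1, 21 were lower with siRelB (75.0%, and 67.7% of the 31 genes there), with r = 0.69 across the 54 genes. Of the same 28, 15 were lower with siRelA (53.6%, and 65.2% of the 23 genes there), with r = 0.67. With 31 and 23 of the 54 genes lower, part of each overlap follows from the counts alone. Overlap and r across all tested genes were not computed here either. NUF2, TTK, CDK1, SMC2, ASPM, KIF18A and KIF11 were among those lower with all 3 siRNAs, while CCNB2 was lower with siRelA (-0.86) and had 0.05 with siNupr1 and -0.19 with siRelB.

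Genes with a CHR match in the promoter window were lower at 6 h in 31 of 36 cases and those without in 11 of 12, with median differences of -0.67 and -0.59. In EBSS against mock the counts were 28 of 36 and 8 of 12, with medians of -0.97 and -0.36. For CCAAT the medians were -0.63 with a match and -0.66 without at 6 h, and -0.64 and -1.08 in EBSS against mock. For GGCGGGA they were -0.84 with a match and -0.62 without at 6 h, and -1.07 and -0.63 in EBSS against mock. No test was made of these splits.

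Further genes of the pathway were followed on 4 lists chosen with earlier results of these data known. Genes called higher are counted here for the last list only, so the counts of the others show 1 direction. Of 58 other mitosis genes tested, 24, 35 and 19 were lower at 3, 6 and 9 h, beside 9.07%, 15.7% and 15.1% of all tested genes. In EBSS against mock 34 were lower, beside 29.3% of all. Not every gene of the list moved that way. CKS1B, for one, had 10.75, 10.90 and 11.64 in EBSS with siRelA, siRelB and siCtrl, against 10.48, 10.72 and 11.20 in mock. With siNupr1, siRelA and siRelB the counts were 28, 19 and 23, beside 8.58%, 11.4% and 8.55%. SPDL1 (spindly), which links dynein to the complex that holds ZW10 and ZWILCH, led them at 6 h with -1.44 ± 0.14, followed by ARHGAP11A, a RhoA GTPase-activating protein, with -1.24 ± 0.14. DSN1, a subunit of the MIS12 complex that holds NDC80 at the kinetochore, had -1.23 ± 0.12. Condensin II and cohesin genes, whose products also shape and hold chromosomes, were lower in 4 of 15 at 6 h and in 12 of 15 in EBSS against mock, beside the same 15.7% and 29.3% of all tested genes. SMC1A, PDS5B and NCAPD3 had -0.43, -0.43 and -0.37 at 6 h. Anaphase-promoting complex genes were lower in 5 of 15 at 6 h (33.3%, where 15.7% of all tested genes were lower), led by CDC26 with -0.76, the inhibitor FBXO5 with -0.66 and ANAPC13 with -0.49. Cell cycle transcription regulators were lower in 10 of 22 at 6 h and higher in 1, beside 15.7% lower and 7.65% higher among all tested genes. The repressors E2F7 and E2F8 had -0.99 and -0.87, and NFYB, a subunit of the CCAAT-binding factor NF-Y, had -0.82.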

How the data were processed

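RNA of MiaPaCa2 cells was measured on 14 arrays. The authors deposited log2 values from RMA (background correction, quantile normalization and a summary of the probes of each transcript cluster), per the submitters' processing notes, which also name limma. Versions, genome build and annotation: not given in the sources used here. Of 28869 transcript clusters, 19310 had 1 gene symbol in the array annotation, 1752 several and 7807 none; 19279 matched a current symbol by Entrez identifier. The brightest of several clusters stood for a gene (685 genes, among them BIRC5). An additive model of 9 columns for set, siRNA and condition (R 4.3.3, limma 3.58.1, lmFit, eBayes with trend) left 5 residual degrees of freedom. The interaction terms were added in turn; with those for medium, only the Nupr1 set gave the spread. The fit was tested on data simulated with independent noise of the fit's own size, without departures from additivity or shifts of whole arrays. That simulation cannot show how the fit behaves where such departures exist. Promoter windows were searched with Python 3.11.15.

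The genes and lists were chosen with earlier results of these data known. Genes given array by array are CDK1, CCNB1, PLK1, AURKA, AURKB, TOP2A, FOXM1 and MKI67, up to 6 with the largest called difference in each comparison, and the largest at 6 h in each role group. KIF18A and CCNB2 met this rule and are given by their differences only. Some others, such as CENPF and ECT2, are given on the arrays of 1 set only. Alternatives were other filters, quantile normalization, the mean of clusters, no intensity trend, array weights, removal of the span trend, 1 set alone and leaving out each array.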

Additional observations from a re-analysis of the deposited data

Results flagged for a closer look

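The starvation difference at 9 h was set between the Nupr1 set and the NF-kB set by a contrast of the limma fit, and it differed for 28 of the 54 genes (21 higher and 7 lower in the Nupr1 set minus the NF-kB set). Among all tested genes, 16.4% were higher and 8.11% lower. The largest of these differences were 1.69 for SMC4, 1.38 for KIF14, 1.36 for ANLN, 1.35 for CENPF, 1.35 for KIF18A and 1.34 for ECT2. Each of the 6 genes was far lower in EBSS against mock, with differences from -1.91 for SMC4 to -1.26 for ECT2, than at 9 h against 0 h, with differences from -0.39 for ANLN to 0.08 for ECT2. The baselines differ, 0 h in the Nupr1 set and mock medium at 9 h in the NF-kB set, so the set, the baseline and the medium cannot be told apart. With the span trend removed the count was 24.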

How the results depend on the processing

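Of 93 single-gene results, 2052 of 2163 alternative values kept their direction and call, 111 kept the direction and missed the threshold, and 0 reversed. The 93 were chosen because the main fit called them, and many alternatives cannot move an estimate, so these totals are no measure of robustness. CCNB1 at 3 h, for one, kept -0.34 with no filter, with no intensity trend and without either siRelB array. The counts of mitosis genes called changed by over 1.5 times in these cases. At 3 h against 0 h the main count of 28 was 17 after quantile normalization and 6 to 32 when single arrays were left out. At 6 h, 47 became 15 to 47 without single arrays. At 9 h, 25 became 13 with array weights and 16 to 26 without single arrays. At 6 h against 3 h, 0 became 7 with array weights (1 higher, 6 lower) and was 0 without any single array. Without single arrays the count was 17 to 33 for siNupr1 (main 29), 20 to 35 for siRelB (main 32), 4 to 16 for siRelB against siRelA (main 13) and 17 to 32 for the difference between the sets (main 28). The siNupr1 difference per hour had 0 calls, and 5 in the Nupr1 set alone (4 higher, 1 lower). EBSS against mock stayed between 36 and 42 and siRelA between 18 and 28 without single arrays, and leaving out both 6 h or both 9 h arrays of the Nupr1 set, chosen after seeing the data, moved no count by over 1.5 times. Counts within role groups without single arrays, also chosen after seeing the data, are given beside them. The cause of these changes was not tested, beyond the fewer arrays. No paired analysis was possible because every group is 1 array and the replicate numbers name samples only; siRNAs were compared within condition by the fit itself. The medium interactions have no residual spread of their own set, so alone-set and some single-array fits could not be made there. The small number of arrays limits what can be seen. So do levels below the filter level on some arrays for SMC2, PLK4, ITGB3BP, HMMR, TTK, KIF18A, KIF14, CENPK, ASPM and SPC25. SMC2 was below it on every EBSS array of the NF-kB set. Several of the largest differences in EBSS against mock, with siRelA and with siRelB rest in part on such levels.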
